A study of Mus musculus with 24 samples.

Results

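The regions described here are stretches of the mouse genome that carried an H3K4me2 peak in every H3K4me2 list of the series and lay away from the ends of protein-coding genes. Overlapping peaks of the 8 H3K4me2 lists on chromosomes 1 to 19, X and Y were merged into 43393 regions. Of these, 8562 had a peak in all 8 lists, and 1490 of the 8562 had no end of a RefSeq protein-coding gene within 2500 bp. These 1490 are called the distal regions below. They were selected on their H3K4me2 peaks in these 8 lists, so their H3K4me2 values are a description and carry no test, whereas H3K4me1 and PRDM16 peaks were not used in the choice.

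CUT&RUN, in which an antibody tethers a nuclease that cuts the chromatin around its target, was done with antibodies to H3K4me1, H3K4me2 and PRDM16. The 4 kinds of cells, all of C57BL/6 background, were embryoid bodies (EB) at day 6 with Prdm16 knocked out (KO), wild-type EB at day 6, KO embryonic stem (ES) cells and wild-type ES cells. EB are aggregates in which ES cells differentiate, here grown in serum, while the ES cells were kept with LIF on Matrigel. The sources used here do not give the knockout allele, the clone it came from or the cell types within EB. Each antibody had 2 libraries for each kind of cell, and the labels do not say that these were separate cultures, so a p-value measures only the spread between libraries, which may be technical.

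Methylation of lysine 4 of histone H3 marks active and poised regulatory DNA. H3K4me1 is typical of enhancers, and promoters in use carry H3K4me3 at their start with H3K4me2 on its flanks. H3K4me2 is found at both, so a peak away from a gene end can be an enhancer, an internal promoter or the promoter of a non-coding RNA. PRDM16, a member of the PR domain family with zinc fingers that bind DNA, is studied for its part in brown fat, blood stem cells and neural progenitors.

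The H3K4me2 lists held 13818 to 32874 peaks, the H3K4me1 lists 5990 to 15435 and the PRDM16 lists 146 to 586. Read totals were not analysed here, so depth is unknown. The shortest H3K4me1 lists were those of KO EB, with 8943 and 5990 peaks, against 14082 and 13260 in wild-type EB. H3K4me2 libraries of KO ES cells (replicate 2) and wild-type EB (replicate 2) belonged to other library series than the remaining 6. PRDM16 libraries of wild-type ES cells (replicate 2) and KO ES cells (replicate 1) likewise belonged to another library series than the other PRDM16 libraries. A list records where a peak was called: Gapdh, Actb and Sox2 had no H3K4me2 peak at a gene end in any list, so the lack of a peak is not read as the lack of the mark. Among 37 naive pluripotency genes, 16 to 24 had an H3K4me2 peak at a gene end in EB lists and 11 to 15 in ES lists. Genes of early neural development ran the other way, with 2 to 10 of 28 in EB lists and 11 to 14 in ES lists. Primed epiblast genes overlapped, with 3 to 10 of 17 and 5 to 7. Cardiac genes were higher in ES lists, with 0 to 2 of 15 in EB lists and 3 to 6 in ES lists. Blood and endothelial genes ran the same way, with 4 to 8 of 16 and 9 to 11. Endoderm genes did too, with 5 to 6 of 15 and 7 to 8. Fibroblast genes were higher in EB lists, with 5 to 7 of 12 against 4. Naive genes were thus marked more often in EB lists, and early neural, cardiac, blood and endoderm genes in ES lists. This order is opposite to the stage labels and limits readings of EB against ES. Its cause was not tested.

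The word distal held only for gene ends. RefSeq promoter windows, which run from 250 bp before to 50 bp after an annotated transcription start, overlapped 568 of the 1490 distal regions (38.1%). Of these, 403 held a start of a protein-coding gene and 165 held starts of long non-coding RNAs (lncRNAs) alone. The same windows overlapped 5.99% of the 26602 distal regions found in 1 to 7 lists and 79.0% of the 7072 regions at gene ends found in all 8. The remaining 922 distal regions overlapped no promoter window, and 773 of them held no end of a non-coding gene either. A total of 474 protein-coding promoter windows, of 385 genes, lay wholly inside distal regions, at a median of 20890 bp (range 3328 to 1089782 bp) from the nearer end of their gene, so these are internal starts.

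The promoter windows inside distal regions that follow are shown because they include internal starts of the top-ranked regions and both extremes of H3K4me1. Sequences are RefSeq's for GRCm38.p6 (the coordinates of mm10), 5′ to 3′ on the gene's strand, with CG dinucleotides in capitals. Ntng1 (minus strand, chr3:110143423-110143722), Magi2 (plus strand, chr5:19226796-19227095) and Fgf12 (minus strand, chr16:28446026-28446325) lay in the protein-coding promoter regions ranked highest by H3K4me2. Prkg1 (minus strand, chr19:31664321-31664620) was the highest-ranked with H3K4me1 in 0 lists and Lrrtm1 (plus strand, chr6:77242227-77242526) the highest-ranked with H3K4me1 in all 8.
Ntng1: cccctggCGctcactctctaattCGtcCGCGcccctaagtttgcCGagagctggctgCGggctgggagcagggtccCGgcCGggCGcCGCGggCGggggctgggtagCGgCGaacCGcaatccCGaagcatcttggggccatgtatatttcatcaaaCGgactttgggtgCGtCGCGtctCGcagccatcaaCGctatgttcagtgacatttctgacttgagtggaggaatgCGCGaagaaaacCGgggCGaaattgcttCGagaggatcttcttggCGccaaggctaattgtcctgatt
Magi2: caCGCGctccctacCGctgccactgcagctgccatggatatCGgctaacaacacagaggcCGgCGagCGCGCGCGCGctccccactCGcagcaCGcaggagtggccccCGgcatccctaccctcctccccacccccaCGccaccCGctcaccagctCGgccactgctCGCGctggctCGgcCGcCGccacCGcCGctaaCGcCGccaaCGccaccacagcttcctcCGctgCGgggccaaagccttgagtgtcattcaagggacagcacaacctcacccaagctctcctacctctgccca
Fgf12: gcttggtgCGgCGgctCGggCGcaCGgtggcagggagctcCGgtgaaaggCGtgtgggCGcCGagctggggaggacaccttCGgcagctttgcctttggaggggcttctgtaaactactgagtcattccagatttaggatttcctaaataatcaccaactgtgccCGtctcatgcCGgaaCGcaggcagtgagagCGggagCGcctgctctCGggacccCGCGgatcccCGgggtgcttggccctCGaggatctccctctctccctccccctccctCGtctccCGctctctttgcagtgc
Prkg1: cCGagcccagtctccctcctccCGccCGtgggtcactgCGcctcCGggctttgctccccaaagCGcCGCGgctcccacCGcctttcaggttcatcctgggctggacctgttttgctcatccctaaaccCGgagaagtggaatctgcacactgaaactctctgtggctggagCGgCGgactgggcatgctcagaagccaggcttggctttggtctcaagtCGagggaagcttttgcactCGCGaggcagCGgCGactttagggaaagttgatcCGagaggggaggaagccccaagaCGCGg
Lrrtm1: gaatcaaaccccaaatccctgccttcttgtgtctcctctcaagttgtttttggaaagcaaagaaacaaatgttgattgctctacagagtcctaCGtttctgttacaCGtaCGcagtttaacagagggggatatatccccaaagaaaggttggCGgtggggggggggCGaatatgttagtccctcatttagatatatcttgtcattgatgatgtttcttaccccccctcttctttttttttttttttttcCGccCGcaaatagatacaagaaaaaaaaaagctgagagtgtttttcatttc

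The windows of Ntng1, Magi2 and Fgf12 held 28, 29 and 22 CG dinucleotides, and that of Prkg1 held 20. The Lrrtm1 window, in a region with H3K4me1 in every list, held 7 and had a GC content of 40.7%, against 59.7% for Ntng1 and 69.3% for Magi2. Over all 743 promoter windows inside distal regions the median was 16 CG dinucleotides, against 7 over all 32851 RefSeq windows. The median was 22 in the 7813 windows inside gene-end regions and 7 in the 1675 windows inside distal regions of 1 to 7 lists. Within the distal regions, windows of regions with H3K4me1 in 5 to 8 lists had a median of 8 (123 windows), and those with H3K4me1 in 0 lists a median of 17 (270 windows). The GC box GGGCGG, on either strand, was in 54.5% of the windows inside distal regions and in 35.7% of all RefSeq windows. TATAAA, on either strand, was in 6.59% and 13.6%, and CACGTG, the E-box core, in 5.79% and 7.15%.

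MicroRNA (miRNA) genes had an end in 14 of the 1490 distal regions. The counts were 53 of the 7072 gene-end regions and 66 of the 26602 distal regions of 1 to 7 lists. The 14 regions held 24 miRNA genes, 23 of which had a mature sequence in the RefSeq table. Both of the regions with several held paralogous clusters: the host gene Mir17hg on chromosome 14 (chr14:115041901-115046738) with 6 miRNA genes, and its X-linked copy Kis2 (chrX:52740829-52747752) with 6. The miRNAs of these clusters promote proliferation in many tissues and are abundant in ES cells. Their mature sequences are shown because the clusters share 4 seeds between an autosomal and an X-linked region that differed in H3K4me1. Capitals mark the seed, bases 2 to 8.
miR-17-5p, chromosome 14: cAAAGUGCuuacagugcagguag
miR-20a-5p, chromosome 14: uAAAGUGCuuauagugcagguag
miR-106a-5p, chromosome X: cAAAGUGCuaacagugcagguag
miR-20b-5p, chromosome X: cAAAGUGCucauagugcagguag
miR-18a-5p, chromosome 14: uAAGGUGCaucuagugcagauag
miR-18b-5p, chromosome X: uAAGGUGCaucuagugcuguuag
miR-19a-3p, chromosome 14: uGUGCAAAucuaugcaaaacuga
miR-19b-3p, chromosomes 14 and X: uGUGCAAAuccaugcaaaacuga
miR-92a-3p, chromosomes 14 and X: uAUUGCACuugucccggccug
miR-363-3p, chromosome X: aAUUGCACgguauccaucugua

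The H3K4me2 score of a region was its highest peak score in a list, given as a percentile among the 8562 regions in all 8 lists, with 0 lowest. Since every list ranks the same regions, list length does not enter. The Mir17hg region stood at percentiles 40.0 and 20.7 in KO EB, 19.9 and 23.5 in wild-type EB, and 63.1 and 42.0 in KO ES cells, with 77.0 and 88.3 in wild-type ES cells. Its 4 EB values lay below its 4 ES values, and H3K4me1 peaks covered it in all 4 ES lists and 1 EB list. The Kis2 region stood at 60.8 and 73.6 in KO EB, 15.3 and 5.75 in wild-type EB, and 40.1 and 32.8 in KO ES cells, with 16.6 and 42.0 in wild-type ES cells, with H3K4me1 in 0 of 8 lists. Its stages overlapped, and both KO EB values lay above both wild-type EB values. The other miRNA regions included those of let-7i, which rises as cells differentiate, miR-125b-1, miR-137, miR-148a, miR-193b, miR-1a-1 and miR-200b, which represses Zeb1 and Zeb2. The miR-1a-1 region, of a miRNA of heart and skeletal muscle, had H3K4me1 in 3 EB lists and 0 ES lists. It was lower in EB by H3K4me2, at 18.8 and 13.8 in KO EB and 17.7 and 27.3 in wild-type EB, against 45.7 and 61.9 in KO ES cells, with 32.3 and 42.2 in wild-type ES cells.

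Distal regions had a median width of 4024 bp (705 to 14012 bp) and covered 6.37 Mb. Gene-end regions had a median of 4587 bp and distal regions of 1 to 7 lists 1671 bp. Being merged from 8 lists widens a region, so width goes with the rule. The median distance to the nearest protein-coding gene end was 23706 bp, 206 regions (13.8%) lay more than 100000 bp away, and 389 (26.1%) lay within 10000 bp. A total of 820 (55.0%) overlapped the span of a protein-coding gene and 670 lay between genes; exons, introns and UTRs were not resolved. Chromosome 2 held the most, with 110, the X chromosome held 44 and the Y chromosome 0. On chromosome 18 the distal regions made up 22.8% of the regions in all 8 lists, and on chromosome 7 they made up 14.2%. The share of regions that were distal fell with the number of lists, being 17.4% at 8 lists, 35.5% at 7 and 86.6% at 1. A further 689 distal regions missed a single list, in 229 and 164 cases that of KO EB (replicates 2 and 1), and in 7 cases that of KO ES cells (replicate 2), the longest list.

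The threshold of 2500 bp passed through a continuous range. Just inside it lay regions in Disc1 (2516 bp from the gene end), Ubash3b (2519 bp) and Ism1 (2531 bp), and just outside it regions in Ccdc85a (2490 bp) and Rhd (2475 bp) and near Thap1 (2460 bp). Disc1 and Ubash3b inside and Ccdc85a outside all held a promoter window of their gene. Non-coding genes had an end in 366 distal regions (24.6%), against 18.4% of gene-end regions in all 8 lists and 9.12% of distal regions in 1 to 7 lists. In the distal regions these were lncRNAs in 294, pseudogenes in 28, tRNAs in 22, snoRNAs in 8 and snRNAs in 7. A region near Hjv, 9779 bp wide and among the 5 widest, held 5 tRNA genes.

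Ranked by the lowest of their 8 percentiles, the top 10 distal regions included 6 with peaks of all 3 antibodies in every list. These regions, near Lrrc4c, Mid1 (2 regions) and Ly6c2, in Zc3h7a, and on chromosome 17 over the ribosomal RNA gene Rn18s-rs5, are described with PRDM16 below. Regions inside Ntng1, Magi2 and Fgf12 followed, with no PRDM16 peak. Ntng1, a membrane-anchored netrin-like guidance protein, had a region at 99.0 and 99.9 in KO EB, 99.1 and 98.6 in wild-type EB, and 99.7 and 99.8 in KO ES cells, with 99.1 and 99.5 in wild-type ES cells. Magi2, a synaptic scaffold protein, had a region at 97.4 to 99.8 in EB and 97.4 to 99.3 in ES cells. Fgf12, an intracellular FGF homologue that modulates sodium channels, had its at 99.1 to 99.4 in EB and 97.4 to 99.4 in ES cells. In these 3 regions the stages overlapped, and H3K4me1 peaks were in 2, 1 and 1 of the 8 lists.

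Gdi2 (a regulator of Rab proteins), the agouti gene a (a switch of coat pigment), Ccr1 (a chemokine receptor), Sgms1 (a sphingomyelin synthase), Tenm3 (a teneurin of neuronal wiring) and St8sia1 (the GD3 ganglioside synthase) were the nearest genes of the next 6 regions without a PRDM16 peak, a listing chosen after the values were seen. Sgms1 and St8sia1 held protein-coding promoter windows, while the regions near Ccr1 and Tenm3 held lncRNA promoter windows (Gm51701 and 1700019L22Rik). Among regions with no promoter window, that near Tead4, a Hippo pathway transcription factor of the trophectoderm, stood at 94.3 and 98.4 in KO EB, 96.3 and 97.5 in wild-type EB, and 97.4 and 96.8 in KO ES cells, with 98.9 and 97.0 in wild-type ES cells. It lay 25068 bp from the gene end and had H3K4me1 in 4 lists, 2 of each stage.

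As a set the distal regions ranked below the gene-end regions in every library. Their median percentile was 36.7 and 39.5 in KO EB, 37.8 and 41.2 in wild-type EB, and 44.2 and 44.6 in KO ES cells, with 41.3 and 42.0 in wild-type ES cells. Gene-end regions had medians of 51.0 to 52.6. The 568 distal regions with a promoter window had medians of 45.0 to 51.8, and the 922 without one 31.2 to 41.3. Every EB median of the distal regions lay below every ES median, the closest being 41.2 and 41.3. The mean of the EB medians minus that of the ES medians was -4.26 percentile points. In both subsets the stages overlapped. With a promoter window, KO EB (replicate 2) had 48.6 and wild-type ES cells (replicate 2) had 48.3. Without one, wild-type EB (replicate 2) had 36.7 and wild-type ES cells (replicate 1) had 36.6. Each H3K4me2 list was also set beside the H3K4me1 list of the same group and replicate number. These are different libraries, and the labels do not say that the number pairs them. Distal regions with an H3K4me1 peak had a higher median than those without one in 7 of 8 such pairs. The medians ran from 36.8 against 36.5 in KO EB (replicate 1) to 48.1 against 39.7 in wild-type ES cells (replicate 2). In wild-type EB (replicate 2) the order was the other way, 37.9 against 42.6.

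**Figure D1:**
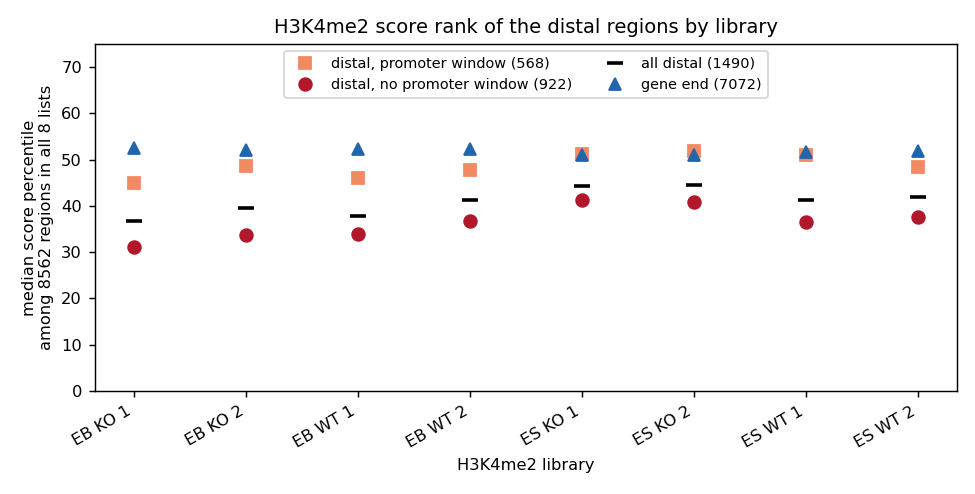
Median H3K4me2 score percentile (vertical axis, percentile among the 8562 regions in all 8 lists) in each H3K4me2 library (horizontal axis; WT is wild type) for distal regions with and without a promoter window, all distal regions and gene-end regions. The distal regions as a set lie at 36.7 to 44.6 and the gene-end regions at 51.0 to 52.6.

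Over the 1490 distal regions, the percentiles of a pair of lists had a Spearman correlation of 0.65 to 0.85 within a group, 0.57 to 0.77 between genotypes of a stage and 0.42 to 0.53 between stages; regions are not independent and no test was made. At 120 distal regions (8.05%) all 4 EB percentiles lay above all 4 ES percentiles, and at 187 (12.6%) all 4 lay below. Over the 8562 regions in all 8 lists these shares were 9.59% and 9.57%. The EB-high share of the distal regions was thus near its background, and the EB-low share was above it, which goes with the lower EB medians of the set.

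**Figure D2:**
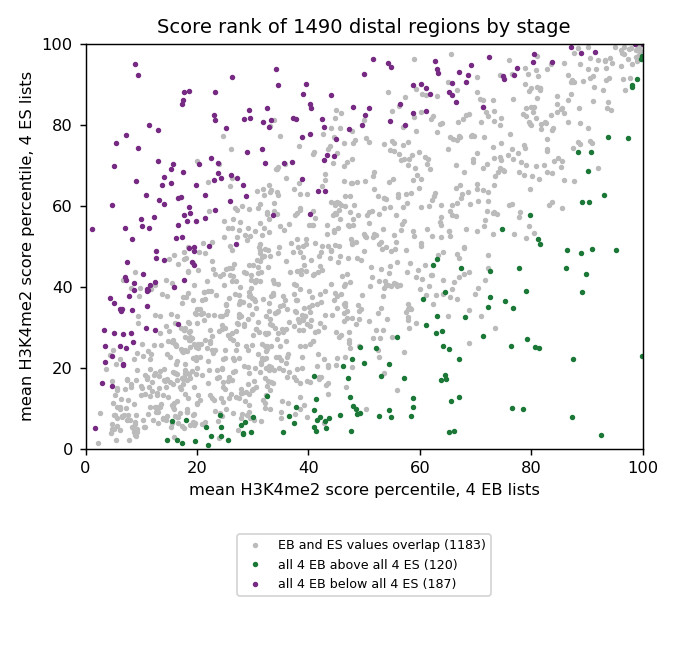
Mean H3K4me2 score percentile over the 4 EB lists (horizontal) and the 4 ES lists (vertical) of each of the 1490 distal regions. Green points are the 120 regions whose 4 EB values lie above their 4 ES values, purple points the 187 with EB below, and grey points the 1183 whose stages overlap.

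A region inside Pde4d, a cAMP phosphodiesterase, had the widest gap toward EB. It stood at 85.3 and 95.8 in KO EB and 95.0 and 94.1 in wild-type EB, against 4.92 and 1.51 in KO ES cells, with 1.02 and 6.13 in wild-type ES cells, a mean difference of 89.1 percentile points. Pde4d held the most distal regions as their nearest gene, 7, and another of them, with Mir1904, stood at 63.8 to 89.3 in EB and 52.4 to 82.7 in ES cells, so neighbours in the gene did not move together. A region in Smad4, the common transducer of TGF-beta and BMP signals, stood at 83.9 to 90.2 in EB and 1.33 to 22.9 in ES cells, with H3K4me1 in 7 lists. Prmt5, an arginine methyltransferase needed in early embryos, had a region 8483 bp away at 69.2 to 94.9 in EB and 4.27 to 13.5 in ES cells. Smarca2, an ATPase of BAF chromatin remodelling complexes, had one at 69.8 to 81.5 in EB and 0.619 to 24.4 in ES cells. Rnf157, a ubiquitin ligase, had one at 83.8 to 91.2 in EB and 5.56 to 44.3 in ES cells. Internal promoters of Kifap3, which links kinesin II to its cargo, and of Tfdp2, a partner of E2F factors, were also EB-high and carried H3K4me1 in 0 lists. The eighth, near Scaf8, had PRDM16 peaks in all 8 lists.

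In the other direction the region with the widest gap lay 16451 bp from Zfp369. It stood at 1.10 and 5.69 in KO EB and 4.56 and 24.2 in wild-type EB, against 93.9 and 91.2 in KO ES cells, with 97.2 and 98.3 in wild-type ES cells, a mean difference of -86.3 points. H3K4me1 peaks covered it in all 4 ES lists and 0 EB lists, so both marks gave the same order there. A region near Tafa3, which encodes a secreted chemokine-like protein, stood at 3.01 to 20.7 in EB and 88.4 to 95.9 in ES cells. The lncRNA promoter region near Plagl1, an imprinted zinc finger gene, stood at 5.16 to 32.6 in EB and 83.2 to 92.7 in ES cells. An internal promoter region of Cald1, the actin-binding protein caldesmon, was 7824 bp wide and stood at 0.456 to 13.2 in EB and 49.3 to 98.4 in ES cells. Regions at Rpia (a pentose phosphate pathway isomerase), Asb18, Ripor2 and Prkd1 (protein kinase D1) completed the 8. H3K4me1 followed the same order only in part: Asb18 had it in 3 ES lists and 0 EB lists, Rpia in 4 ES and 2 EB lists, Ripor2 in 1 ES and 3 EB lists, and Prkd1 in 0 lists.

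Between genotypes the numbers stayed near their backgrounds in EB. Both KO EB percentiles lay above both wild-type values at 284 distal regions (19.1%) and below at 314 (21.1%), against 19.7% and 20.4% of the 8562 regions. In ES cells both KO values lay above both wild-type values at 404 (27.1%) and below at 276 (18.5%), against 22.1% and 21.5%. The ES shares were thus shifted toward KO, as were the ES medians above, and 1 of the 2 KO ES libraries was of another library series; the part of the series in this shift was not tested. Since H3K4me2 peaks selected the regions, no single region was tested.

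The largest KO differences in EB were at a region near Tmem174, at 85.2 and 95.1 in KO EB against 11.4 and 28.2 in wild-type EB, and at an internal promoter of Sema3a, a secreted axon guidance protein, at 77.4 and 68.1 in KO EB against 7.59 and 0.035 in wild-type EB. In the other direction stood a promoter region of Abhd18, at 9.14 and 2.57 in KO EB against 75.7 and 76.2 in wild-type EB, and a region in Hdac9, a class IIa histone deacetylase, at 16.8 and 6.78 in KO EB against 71.4 and 84.1 in wild-type EB. In ES cells an internal promoter of Sorbs2, a cytoskeletal adaptor protein, stood at 74.0 and 78.3 in KO, against 7.45 and 6.56 in wild type. A region in Zfp64, a zinc finger transcription factor, was 10143 bp wide and stood at 7.51 and 6.98 in KO ES cells, against 69.7 and 70.8 in wild-type ES cells. These regions were picked for their differences, and the 4 values in the other stage of Zfp64 were 94.8 and 78.9 in KO EB and 90.0 and 92.9 in wild-type EB, which overlap.

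H3K4me1 peaks covered a minority of the distal regions in every library. The share with a peak was 24.1% and 18.1% in KO EB, 37.6% and 34.4% in wild-type EB, and 37.7% and 37.0% in KO ES cells, with 41.3% and 36.7% in wild-type ES cells. The KO EB libraries were the lowest, and the other 6 lay within 34.4% to 41.3%. In EB the mean was 21.1 ± 4.22% in KO, and the wild-type libraries had an SD of 2.23 points (n = 2 libraries each). The difference, KO minus wild type, was -14.9 percentage points, with an exact two-sided permutation p of 0.333, the smallest that 2 against 2 libraries can give (adjusted p = 0.476 over the 10 tests of shares made here). The list length moved with this difference: with every H3K4me1 list shortened to its 5990 highest-scoring peaks, the shares were 18.0% and 18.1% in KO EB, 19.8% and 21.6% in wild-type EB, and 18.5% and 19.1% in KO ES cells, with 19.9% and 20.3% in wild-type ES cells, and the EB difference was -2.65 points.

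In ES cells the shares were 37.3 ± 0.427% in KO and 39.0 ± 3.23% in wild type (SD, n = 2 each), a difference of -1.64 points with an exact permutation p of 1.0. The difference of the KO effects, EB minus ES, was -13.3 points (exact permutation of genotype within stage, p = 0.222, adjusted p = 0.37, smallest possible 0.0556), and -1.38 points at equal list length. Between stages the share was 28.6 ± 9.03% in EB and 38.2 ± 2.11% in ES cells (SD, n = 4 each), a difference of -9.61 points with an exact permutation p of 0.0857 (adjusted p = 0.171). Leaving out the wild-type EB library of replicate 1 gave -12.6 points with p = 0.0286 by the same exact permutation test, and equal list length gave -0.0839 points with p = 0.971. The stage difference did not pass the threshold with all libraries.

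H3K4me1 was more frequent at distal regions than at the gene-end regions found in the same 8 lists. The gene-end shares were 10.4% and 8.07% in KO EB, 21.5% and 18.9% in wild-type EB, and 23.8% and 24.1% in KO ES cells, with 27.7% and 24.6% in wild-type ES cells. In each of the 8 libraries the distal share was higher, by 10.0 to 16.1 points and on average by 13.5 points (exact sign-flip permutation over libraries, two-sided p = 0.00781, the smallest possible; adjusted p = 0.0195). This held under all 19 alternatives run for it, from 7.96 to 15.4 points. Against the distal regions of 1 to 7 lists the difference was 13.4 points, higher in 8 of 8 libraries (exact sign-flip permutation p = 0.00781, adjusted p = 0.0195). The rule enters this comparison, so its p-value is not read apart from the rule. The reference regions lack an H3K4me2 peak in at least 1 list. They were also narrower, with a median width of 1671 bp against 4024 bp, and an overlap of 1 bp counted. The part of width in this comparison was not tested. That comparison depended on the setting: it was 7.69 points for a peak over the midpoint, 8.36 points at equal list lengths, 3.77 points with scores of at least 100, 1.08 points (exact permutation p = 0.633) with the higher-scoring 50% of each list, and -0.336 points (exact permutation p = 0.797) where a peak had to cover 50% of the region.

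Within the distal regions the promoter windows divided H3K4me1, a split chosen after the values were seen. Regions with a promoter window had H3K4me1 in 15.5% and 11.8% in KO EB, 30.8% and 25.4% in wild-type EB, and 27.3% and 27.6% in KO ES cells, with 33.8% and 29.8% in wild-type ES cells. Regions without one had it in 29.4% and 22.0%, 41.8% and 40.0%, 44.0% and 42.8%, and 45.9% and 41.0% in the same groups. The share was lower with a promoter window in 8 of 8 libraries, by 13.1 points on average (exact sign-flip permutation p = 0.00781, adjusted p = 0.0195), and by 11.4 to 17.6 points under the 19 alternatives. Regions with a promoter window were wider, with a median of 4356 bp against 3824 bp.

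**Figure D3:**
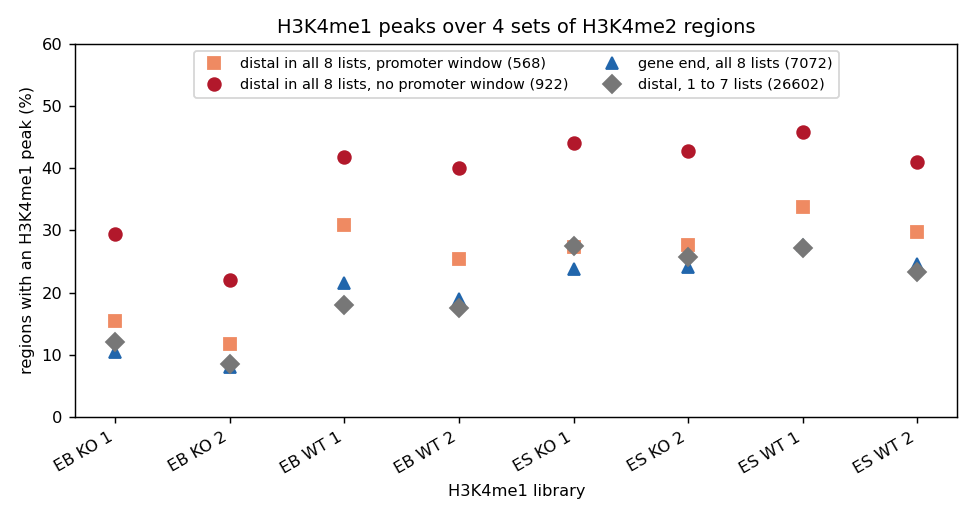
Percent of regions overlapped by an H3K4me1 peak (vertical axis) in each H3K4me1 library (horizontal axis; WT is wild type) for distal regions in all 8 H3K4me2 lists with and without a promoter window, gene-end regions in all 8 lists and distal regions in 1 to 7 lists. Distal regions without a promoter window are highest in each library, at 22.0% to 45.9%.

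At the midpoint of the region, H3K4me1 peaks were present in a mean of 16.7% of the distal regions with a promoter window, 30.3% of those without and 11.3% of gene-end regions over the 8 libraries. At 2000 bp to the left the means were 5.13%, 9.56% and 4.06%, and at 2000 bp to the right 6.27%, 8.85% and 3.86%. In each set the mean share of H3K4me1 was highest within 100 bp of the midpoint. H3K4me2 peaks were present at the midpoint in 95.7%, 94.6% and 96.7%, a result of the choice of regions.

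**Figure D4:**
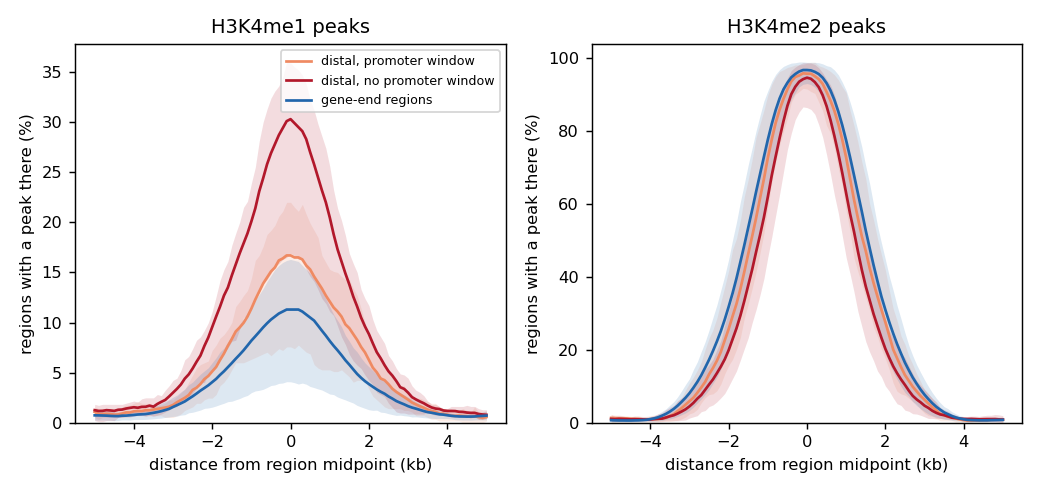
Percent of regions with an H3K4me1 peak (left) or an H3K4me2 peak (right) at each distance from the region midpoint (horizontal axis, kb, along the chromosome) for distal regions with and without a promoter window and gene-end regions. Lines are means over 8 libraries and bands run from the lowest to the highest library. H3K4me1 is highest near the midpoint in each set, at 16.7%, 30.3% and 11.3%.

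Counting lists instead of libraries, 428 distal regions (28.7%) had no H3K4me1 peak in any of the 8 lists and 76 (5.1%) had one in all 8. Among gene-end regions these shares were 41.7% and 1.22%. The share of distal regions that held a promoter window was 47.0% at 0 H3K4me1 lists and 15.8% at 8, and the share inside a protein-coding gene was 59.6% and 28.9%. Of the 76 regions, 17 also had PRDM16 peaks in all 8 lists, so they had a peak in each of the 24 lists of the series.

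**Figure D5:**
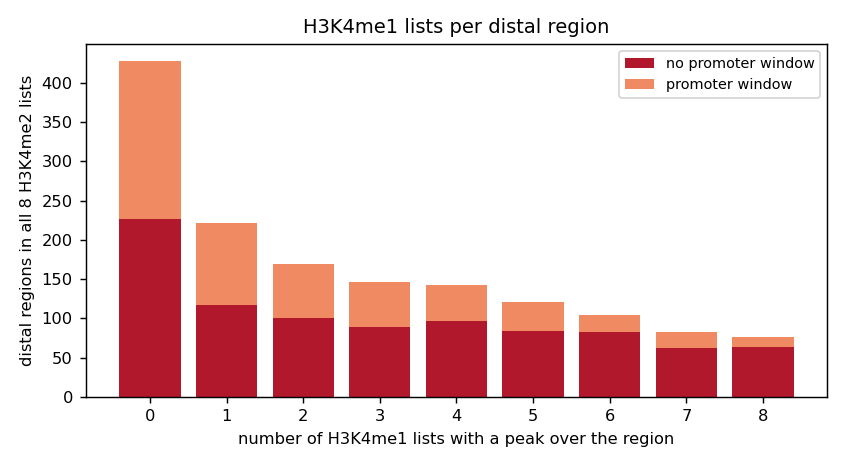
Number of distal regions (vertical axis) by the number of H3K4me1 lists with a peak over them (horizontal axis), with the part holding a promoter window stacked on the part without. At 8 lists 12 regions had a promoter window and 64 had none.

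An H3K4me1 peak in all 4 EB lists and 0 ES lists was found at 10 (0.671%, background 1.25% of the 43393 merged regions), among them regions near Dlc1, a tumour suppressor, and Il21 and in Slf2 and Maml3, a Notch coactivator. The region near Dlc1 was also EB-high by H3K4me2, at 66.7 and 34.8 in KO EB and 81.5 and 84.9 in wild-type EB against 17.0 and 5.54 in KO ES cells, with 19.5 and 8.88 in wild-type ES cells. The region near Il21 went the other way, at 7.58 to 35.3 in EB and 57.6 to 71.5 in ES cells. A peak in 0 EB and all 4 ES lists was found at 41 (2.75%, background 5.68%), with examples near Mkln1 and near Efnb2, an ephrin ligand of vessels and neurons. Both shares lay below their backgrounds, and the backgrounds include regions that lacked H3K4me2 in some lists. Among gene-end regions in all 8 lists the shares were 0.424% for EB only and 2.76% for ES only. Against these the distal regions were not low: the ES-only share was nearly the same and the EB-only share was higher.

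In EB, H3K4me1 in neither KO list and both wild-type lists was found at 114 distal regions (7.65%, background 4.83%), and the reverse at 8 (0.537%, background 0.694%). Examples were the regions near Abca1, a cholesterol exporter, which held the promoter of the lncRNA Lexis1, and near Id4, an inhibitor of bHLH factors. The KO EB lists were the shortest, and whether their length accounts for the 114 was not tested. The 8 KO-only regions included those near Dbx1 and Rgma, which had H3K4me1 in both KO EB lists and all 4 ES lists but in 0 wild-type EB lists. In ES cells, H3K4me1 was in neither KO and both wild-type lists at 46 distal regions (3.09%, background 1.92%) and the reverse at 31 (2.08%, background 2.0%). Lmx1b, a LIM homeobox gene of limb and midbrain, and Tmprss2 had regions of the first kind, and Foxb1, a forkhead gene of the brain, had a region of the second. Among gene-end regions in all 8 lists the ES shares were 2.19% for wild type only and 1.54% for KO only.

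PRDM16 peaks in any list overlapped 48 distal regions (3.22%). The share was close to that of gene-end regions in all 8 lists, at 216 (3.05%), of which 193 had a peak in 1 list only. It was 0.71% at distal regions of 1 to 7 lists. Per library the share of the distal regions was 1.74% and 1.41% in KO EB, 1.48% and 1.68% in wild-type EB, and 1.88% and 1.61% in KO ES cells, with 1.88% and 1.48% in wild-type ES cells, or 21 to 28 regions. KO and wild type overlapped in both stages. The mean was 1.58 ± 0.237% in KO EB and 1.58 ± 0.142% in wild-type EB, a difference of 0 points, and 1.74 ± 0.19% in KO ES cells and 1.68 ± 0.285% in wild-type ES cells, a difference of 0.0671 points (SD, n = 2 each; exact permutation p = 1.0 in both stages). Peaks in KO libraries were used as the background of the antibody, and 37 of the 48 regions had a peak in at least 1 KO list.

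The 48 fell into regions in nearly all lists and regions in nearly none. A PRDM16 peak was in all 8 lists at 19, in 6 or 7 at 2, in 2 at 4 and in a single list at 23, and 14 had peaks only in KO lists and 11 only in wild-type lists. The regions in all 8 lists included those near Lrrc4c (1693 bp, chr2:98665788-98667480), Mid1 (1886 and 2213 bp), Ly6c2 (2273 bp) and Rpusd4 (1242 bp) and in Zc3h7a (2104 bp), as well as the Rn18s-rs5 interval (chr17:39842658-39849219), all with high H3K4me2 ranks, and 0 of the 19 regions held a promoter window. Not all ranked high: a region near Alkbh8 had PRDM16 and H3K4me1 in all 8 lists and H3K4me2 at 4.02 to 13.3 in EB and 1.05 to 9.96 in ES cells. The regions with PRDM16 in 2 lists lay near Cr2 and Kmt2e (a relative of the H3K4 methyltransferases), in Crybg2, and near Zfp239. PRDM16 was more frequent at distal regions than at the distal regions of 1 to 7 lists, with 1.64 ± 0.183% against 0.199 ± 0.0776% (SD, n = 8 libraries; higher in 8 of 8, exact sign-flip permutation p = 0.00781, adjusted p = 0.0195). That outcome was partly set by the rule. The same 19 regions recurred in every library, KO libraries included, so the 8 libraries largely counted the same places. A region with a peak in each of the 24 lists can fall only in the set in all 8 lists (17 against 0). The p-value is thus not read as support for PRDM16 binding there. Without regions over a KO peak the difference was 0.0777 points (exact permutation p = 0.125). That step sets the 4 KO libraries to 0 by construction, and 0.125 is the smallest that the 4 wild-type libraries can give, so this test could not pass.

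The nearest protein-coding genes of the distal regions numbered 1320. Of these, 1178 were nearest to 1 region, 122 to 2 and 20 to 3 or more, with Pde4d at 7 and Ank2, Fcgr3, Pde4dip and Tenm3 at 4 each. Proximity does not show which gene a region acts on. The gene lists below were written with earlier results of these data known, and counts are given beside those of the 26602 distal regions in 1 to 7 lists. Genes of early neural development were nearest to 13 distal regions (0.872%, against 0.462%), from 10 of 28 genes, among them Lhx2, Neurog1, Neurog2, Sox1, Sox9, Sox11 and Zic5. Feedback genes of signalling pathways were also nearest to 13 (0.872%, against 0.414%), from 9 of 25 genes, among them Axin2, Dusp6, Hes1, Id3, Smad7 and Spry2. Naive pluripotency genes were nearest to 7 (0.47%, against 0.692%), primed epiblast genes to 7 (0.47%, against 0.286%), trophoblast genes to 5 (0.336%, against 0.117%) and primitive streak and mesoderm genes to 4 (0.268%, against 0.184%). Cardiac, blood and endothelial, and endoderm genes were each nearest to 2 (0.134%, against 0.143%, 0.128% and 0.124%). PRDM family genes were nearest to 3 (0.201%, against 0.256%). Brown fat genes linked to PRDM16 were nearest to 1 (0.0671%, against 0.237%), as were Hox genes (0.0671%, against 0.0677%). Housekeeping genes, H3K4 methylation enzymes and fibroblast markers were nearest to 0, against 0.0113%, 0.0489% and 0.0714%. With shares that small, a count of 0 does not show an absence. Some genes were in more than 1 list, so the counts are not of separate regions. Otx2 was in the naive pluripotency and primed epiblast lists, and Dusp6 in the primed epiblast and feedback lists. Eomes was in the primitive streak and trophoblast lists, and Sox17 in the blood and endoderm lists. These shares are of regions and carry no test.

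An internal promoter region of Esrrb, an orphan nuclear receptor of naive pluripotency, stood at 41.1 and 37.1 in KO EB and 45.8 and 68.2 in wild-type EB, against 85.7 and 75.5 in KO ES cells, with 88.3 and 87.6 in wild-type ES cells. All 4 EB values lay below all 4 ES values, and H3K4me1 was in all 4 ES and both wild-type EB lists but in 0 KO EB lists. A region 117713 bp from Klf4, a pluripotency factor, stood at 44.4 to 86.8 in EB and 68.2 to 88.7 in ES cells, which overlap. A region 83177 bp from Otx2, which directs the exit from naive pluripotency and forebrain formation, had H3K4me1 in all 8 lists and stood at 25.7 to 56.4 in EB and 37.5 to 78.6 in ES cells. Near Sox4, a SoxC factor of progenitors, a region with H3K4me1 in all 8 lists stood at 67.5 to 96.4 in EB and 58.7 to 78.2 in ES cells.

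Spry2, an inhibitor of receptor tyrosine kinase signalling, was nearest to 3 distal regions with H3K4me1 in 6 to 8 lists. The one 157853 bp away stood at 72.3 and 92.4 in KO EB and 91.8 and 89.0 in wild-type EB, against 64.2 and 54.7 in KO ES cells, with 49.5 and 27.5 in wild-type ES cells, with EB above ES in all 4. The region inside Wnt3, a ligand needed for gastrulation, ran the other way, at 5.27 to 10.4 in EB and 21.1 to 60.8 in ES cells. A region 7028 bp from Eomes, a T-box factor of mesendoderm and trophoblast, stood at 4.91 to 30.5 in EB and 0.315 to 3.77 in ES cells, with H3K4me1 in 6 lists. Sox9, a regulator of glia and cartilage, had a region with H3K4me1 in 0 lists, and Sox11 had a region with H3K4me1 in all 8.

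Within the PRDM family the distal regions lay in Mecom, the closest relative of Prdm16, in Prdm1 and in Prdm2. The internal promoter region of Mecom stood at 64.1 and 54.1 in KO EB, 49.9 and 34.0 in wild-type EB, and 66.8 and 40.5 in KO ES cells, with 70.8 and 52.6 in wild-type ES cells, so that KO lay above wild type in EB and overlapped it in ES cells. The region of Prdm1, a transcriptional repressor needed for primordial germ cells and plasma cells, stood at 26.1 and 53.8 in KO EB against 6.6 and 4.1 in wild-type EB, and at 34.8 and 29.4 in KO ES cells against 82.3 and 58.0 in wild-type ES cells. The region of Prdm2 stood at 22.1 and 35.3 in KO EB and 33.2 and 29.6 in wild-type EB, against 14.6 and 7.71 in KO ES cells, with 7.57 and 1.58 in wild-type ES cells. All 4 EB values lay above all 4 ES values. None of these 3 regions had a PRDM16 peak in any list.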

How the data were processed

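CUT&RUN peak lists were deposited by the authors, 1 per library, each giving a peak's coordinates, its MACS name and its score. The score is the authors' own value, at least 50 in each list; the sources used here give neither its unit nor the control, duplicate removal or scaling. The submitters' processing notes name HOMER 4.10, MACS2, Bowtie2, deepTools, SAMtools 1.5, bedtools and the build mm10, without their roles.

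Groups and replicate numbers came from the sample titles. Peaks were merged, 1 bp of overlap with a peak put a region in a list, and scores were used only as ranks (Python 3.11.15, pandas 2.3.3, numpy 2.4.6, scipy 1.17.1). Shares were tested by exact two-sided permutation over libraries, with Benjamini-Hochberg adjustment over 10 tests; functions were tested on simulated data. Genes, promoters and miRNAs are RefSeq's (GRCm38.p6, 21887 protein-coding genes). The members, gene lists and tests were chosen with earlier results of these data known. Regions were named by nearest gene: the 10 top-ranked, the 8 largest EB minus ES differences and the 4 largest KO differences in each direction, up to 4 per gene list, 5 per H3K4me1 class, the 5 widest, those with PRDM16 in 2 or more lists, those with a miRNA gene, and those at the threshold. The promoter split, the lists without PRDM16 and the members from 6 lists were added after seeing the data. Replicate numbers did not pair libraries (correlations of deviations -0.09 to 0.07). Some named regions are not reported here.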

Additional observations from a re-analysis of the deposited data

Results flagged for a closer look

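At some named distal regions both KO percentiles of the H3K4me2 score lay on one side of both wild-type percentiles in EB and on the other side in ES cells, which is what singled them out. The difference between the stages was not tested for any region. Over all 1490 distal regions, 153 (10.3%) had this form, against 10.1% of the 8562 regions in all 8 lists, so the share was near its background.

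The largest was a region near Gm3248, at 51.1 and 31.4 in KO EB against 82.9 and 91.3 in wild-type EB, and at 84.1 and 79.1 in KO ES cells against 0.152 and 31.3 in wild-type ES cells. The KO minus wild-type differences were -45.9 points in EB and 65.9 points in ES cells. At the internal promoter of Sorbs2 they were -38.7 and 69.1 points, and at Prdm1 34.6 and -38.0 points. The EB difference minus the ES difference, in percentile points, was positive (KO higher in EB, lower in ES cells) at 8 regions: 41.5 for Gm38664, 25.8 for Ttll10, 25.1 for Gm38821, 72.7 for Prdm1, 53.8 for Mef2c, 2.45 for Zc3h7a, 63.1 for Mrtfb and 82.5 for Mc2r. It was negative at 8 regions: -47.4 for Dpyd, -39.7 for Abca1, -108 for Sorbs2, -32.8 for Ubash3b, -18.6 for Zfp184, -112 for Gm3248, -54.3 for Dab2 and -70.9 for Zfp229. The Zc3h7a region, with the smallest value, ranked near the top in every list. It had PRDM16 peaks in all 8 lists, and so did the Mc2r region.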

How the results depend on the processing

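The number of distal regions, 1490, was 479 with the higher-scoring 50% of each list, 694 with a score of at least 100 and 444 where a peak had to cover 50% of the region in every list; fewer peaks or a stricter overlap leave fewer regions by construction. It was 1498 to 1720 leaving out each list. The excess of H3K4me1 over gene-end regions (7.96 to 15.4 points; 13.1 to 14.0 leaving out each library) and the deficit at promoter windows (-17.6 to -11.4 points; -13.5 to -12.6 leaving out each library) kept direction and side of the threshold under all 19 alternatives each. The excess over other distal regions (12.5 to 13.9 points leaving out each library) was 1.08 points with the higher-scoring 50% and -0.336 points with 50% of the region covered. For EB minus ES, leaving out each library gave -12.6 to -6.14 points, with the first (without wild-type EB replicate 1) past the threshold. KO minus wild type gave -17.9 to -11.9 points in EB and -3.93 to 0.638 in ES cells, where covering 50% of the region gave 1.48; their difference between stages gave -16.2 to -10.3.

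For PRDM16, KO minus wild type in ES cells (0.0671 points) turned to -0.209 with the higher-scoring 50% and -0.0488 with ends of all RefSeq genes. It was -0.241 without regions over a KO peak, -0.268 over the midpoint, -0.0671 with 50% covered and -0.134 at equal list lengths. Without the ES libraries of the second library series it was -0.268, from a single KO and a single wild-type library. It ran from -0.134 to 0.268 leaving out each library. In EB it ran from -0.168 to 0.168. The PRDM16 excess was 1.42 to 1.47 points leaving out each library and 0.0777 without regions over a KO peak. The cause of these changes was not tested. The median rank difference EB minus ES was -16.3 points within whole lists, where list length enters. With the replicate number as a block, the exact permutation p was 0.0556 for EB minus ES (-9.61 points), 0.5 for KO in EB (-14.9 points), 1.0 for KO in ES cells (-1.64 points), 0.375 for their difference (-13.3 points) and 1.0 for PRDM16 in both stages (0 and 0.0671 points), and no call changed. Unknown depth limits all shares.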

Other observations

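Among the regions with a peak in each of the 24 lists, several lay close together: 2 near Lrrc4c on chromosome 2, 2 near Mid1 on chromosome X and 2 near Alkbh8 on chromosome 9. The 2 regions near Alkbh8 were 793 and 961 bp wide. A region near Axin2, a feedback inhibitor of Wnt signalling, had PRDM16 in all 8 lists and stood at H3K4me2 percentiles 8.98 and 9.06 in KO EB and 1.17 and 1.05 in wild-type EB, against 82.7 and 65.6 in KO ES cells with 64.9 and 66.4 in wild-type ES cells. All 4 EB values lay below all 4 ES values. The interval inside Sp140 and Sp110, genes of nuclear body proteins of immune cells, had PRDM16 and H3K4me1 in all 8 lists, and stood at 95.7 and 97.7 in KO EB and 96.1 and 90.9 in wild-type EB, against 10.8 and 26.6 in KO ES cells with 78.8 and 79.7 in wild-type ES cells.

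tRNA genes had an end in 22 distal regions and in 16 of the larger set of gene-end regions, and 19 of the 22 held no promoter window. The median number of bases of a distal region covered by H3K4me2 peaks was 1994 and 2239 bp in KO EB, 2904 and 3284 bp in wild-type EB, 2861 and 2661 bp in KO ES cells and 2385 and 2260 bp in wild-type ES cells, so KO was lower in EB and higher in ES cells, with no overlap in either stage. List length had the same order in ES cells, with 29138 and 32874 peaks in KO against 24600 and 22615 in wild type, and overlapped in EB, with 15205 and 13818 peaks in KO against 14334 and 19246 in wild type. The summed width of all H3K4me2 peaks of a list had the order of the covered bases in both stages, without overlap. It was 39.1 and 39.2 Mb in KO EB against 47.7 and 62.6 Mb in wild-type EB. In ES cells it was 78.3 and 81.0 Mb in KO against 65.5 and 59.2 Mb in wild type. The order was thus not particular to the distal regions. The part of list length or summed width in the covered bases was not tested.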
